A study of Rattus norvegicus with 12 samples.

Results

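The simple epithelial keratins are the intermediate filament genes Krt7, Krt8, Krt18 and Krt19, chosen by symbol: 4 of the 22384 lines with a gene symbol and 4 of the 47 keratin genes in the table, each on a line of its own. Keratin filaments assemble only from pairs of an acidic type I and a basic type II protein. Krt7 and Krt8 encode type II keratins, and Krt18 and Krt19 encode type I keratins. In adult liver, hepatocytes carry keratins 8 and 18, whereas bile duct cells add keratins 7 and 19, so the set is widely used to tell the hepatocyte and the bile duct side of the liver epithelium apart. In cultured epithelial cells keratins 8 and 18 bind the cytoplasmic part of the TNF receptor TNFR2, and keratin 18 binds TRADD, the adaptor of TNFR1.

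The study measured RNA of cultured rat hepatic progenitor cells (HPCs), the immature parenchymal cells of fetal liver, in 12 RNA-seq libraries labelled with gestation day 13.5. The 6 groups of 2 libraries are cells labelled Tnfrsf1α-/- exposed for 1 hour to TNFα (the cytokine tumour necrosis factor alpha) and the same cells untreated, Tnfrsf1β-/- cells with TNFα for 1 hour and untreated, and wild-type (WT) cells with TNFα for 1 hour and untreated. The labels name deletions of the genes for TNFR1 and TNFR2 and do not say how they were made. Whether replicates are separate cultures or animals is not stated, so each p-value reflects the spread between libraries alone, and that spread may be technical. Levels below are log2(FPKM + 1), where FPKM counts fragments relative to transcript length and library size, so that levels of different genes are per length; differences are on the same scale, with n = 2 libraries in every group.

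Several libraries did not match what their labels lead one to look for. Tnfrsf1a, the gene for TNFR1, was at 5.65 and 5.95 with TNFα and at 5.94 and 6.13 untreated in the libraries labelled Tnfrsf1α-/-, against 5.65 and 5.63 with TNFα and 5.45 and 5.15 untreated in WT, so these groups are named by their label only. Tnfrsf1b, the gene for TNFR2, was listed at 0 in all 4 Tnfrsf1β-/- libraries, and also in both untreated WT libraries. The 4 untreated knockout libraries had the lowest total FPKM, 447554 to 472935, against 1071530 to 2085916 for the remaining 8. The replicates of TNFα-treated Tnfrsf1α-/- stood apart from each other (Spearman's rho 0.782 across 11860 genes, against 0.9605 to 0.9961 in the other groups).

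Cell type markers also differed between libraries, and their part in the results below was not tested. Of 20 hepatocyte markers 16 reached 1 FPKM in both treated WT libraries, against 1 or 2 in the other 10, and their summed level was 12.53 and 12.56 against 3.80 to 10.28. The highest of these 10 were the treated Tnfrsf1α-/- libraries, at 10.28 and 10.27 with 2 markers at 1 FPKM in each. Of 10 markers of mesothelium, the lining of the body cavities and of the liver surface, 8 or 9 reached 1 FPKM in 9 libraries, against 3 in each treated WT library and 1 in replicate 2 of treated Tnfrsf1α-/-. The summed level of these mesothelial markers was 11.29 and 6.51 in treated and 11.44 and 11.57 in untreated Tnfrsf1α-/-, 10.65 and 10.71 in treated and 11.47 and 11.44 in untreated Tnfrsf1β-/-, and 3.65 and 3.58 in treated and 10.63 and 10.01 in untreated WT. Of 19 bile duct and progenitor markers other than keratins, 10 reached 1 FPKM in both treated WT libraries and 4 to 8 in the other 10, with summed levels of 11.92 and 11.45 against at most 11.27. The progenitor markers Epcam and Cd24 were at 3.32 and 3.05, and at 6.17 and 6.05, in treated WT, and lay at or below 0.18 in the other 10 libraries. Other markers of this list ran the other way, such as the water channel gene Aqp1 of bile duct cells, at 0.01 and 0 in treated WT against 6.21 and 5.19 in untreated WT and 4.12 to 7.11 in the 8 knockout libraries. Igfbp7, for a secreted growth factor binding protein, was at 0 in both treated WT libraries against 4.85 in both untreated WT libraries and 2.80 to 5.29 in the knockouts. With TNFα in WT 8 of the 11 tested markers were called higher and 2, Aqp1 and Igfbp7, lower. Of the 8, 4 passed the filter through treated WT alone, Epcam and Cd24 among them. The call of Slc4a2, another of the 8, was lost after median-ratio scaling (0.38, limma adjusted p = 0.261). It was also lost after quantile normalization (0.23, limma adjusted p = 0.416). Of all 11860 tested genes 31.9% were called higher and 15.3% lower in that comparison. Prom1, another progenitor marker, did not exceed 0.09 in any library.

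**Figure D1:**
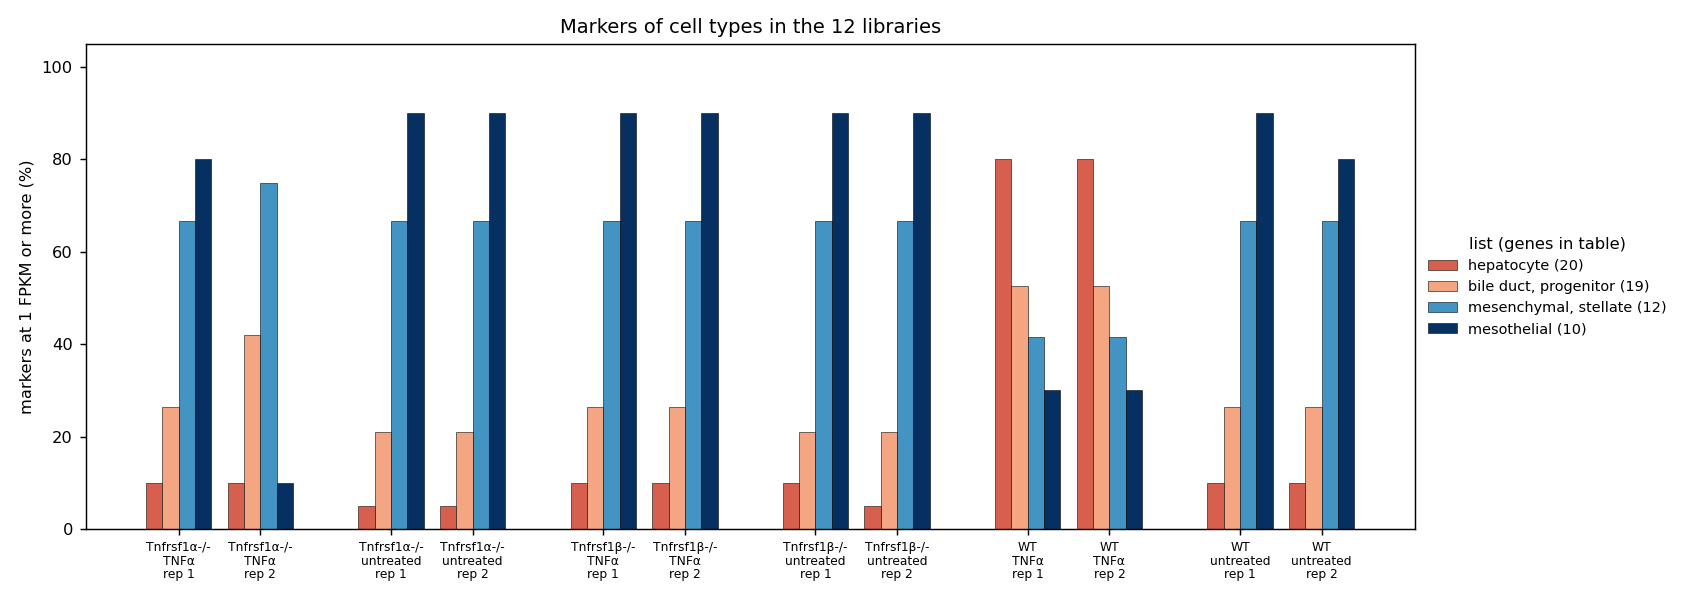
Share of each cell type marker list at 1 FPKM or more (vertical axis, percent) in each of the 12 libraries (horizontal axis), by list. In treated WT 16 of 20 hepatocyte markers reached 1 FPKM, and mesothelial markers were few there and in replicate 2 of treated Tnfrsf1α-/-.

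Krt7, a bile duct keratin, was the highest of the 4 genes in 11 of 12 libraries, and its level followed treatment within both knockout labels. Its level was 14.63 and 15.11 with TNFα and 7.75 and 7.99 untreated under the label Tnfrsf1α-/-. In Tnfrsf1β-/- it was 13.60 and 13.81 with TNFα and 7.67 and 7.64 untreated, and in WT 15.24 and 15.67 with TNFα and 13.80 and 13.50 untreated. The 4 untreated knockout libraries were low, all other libraries were high, and the 2 sets did not overlap. Such a separation in this direction, whatever its width, was found for 1540 of 11860 tested genes, Krt7 included. In the 8 high libraries Krt7 alone held 0.939% to 2.50% of total FPKM, against 0.0444% to 0.0535% in the untreated knockouts.

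With TNFα Krt7 rose in all 3 genotypes. Under the label Tnfrsf1α-/- it averaged 14.87 ± 0.33 with TNFα and 7.87 ± 0.17 untreated (SD; 95% interval of the difference 6.44 to 7.56, limma adjusted p = 1.01e-07), where Krt7 was the only one of the 4 keratins past the threshold and 17.3% of all tested genes were called. In Tnfrsf1β-/- the rise was 6.05 on the log2 scale (SE 0.25, limma adjusted p = 5.88e-07), again with no other keratin called, among 60.5% of all genes. In WT it was 1.81 (SE 0.25, limma adjusted p = 0.000440), among 47.2% of all genes called. Krt18 and Krt19 were called there too, but they passed the filter through treated WT alone, which fixed that outcome. The WT call of Krt7 was lost after quantile normalization (0.33, limma adjusted p = 0.261). Because the median of all genes moved between groups (-0.02, -0.66 and 0.32 in this order), the rise of Krt7 beyond that median was 7.02, 6.70 and 1.49.

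Without TNFα Krt7 was lower in both knockout labels than in WT. It was at 7.87 ± 0.17 under the label Tnfrsf1α-/- against 13.65 ± 0.21 in WT (SD; log2 difference -5.78, limma adjusted p = 7.08e-07; 53.7% of all genes called). Untreated Tnfrsf1β-/- was at 7.66 ± 0.02 (difference from WT -5.99, limma adjusted p = 5.83e-07; 54.4% called). Relative to the median of all genes these differences were -6.26 and -6.46. Of 11860 tested genes 36, Krt7 included, had a gap at least as wide as its 5.51 between the lowest of the other 8 libraries and the highest of the 4 untreated knockouts. These 4 libraries also had the lowest total FPKM, and the part of that total in the Krt7 difference was not tested.

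With TNFα the order was treated WT, then treated Tnfrsf1α-/-, then treated Tnfrsf1β-/-. Krt7 was at 14.87 ± 0.33 under the label Tnfrsf1α-/- against 15.46 ± 0.30 in WT, a difference of -0.59 (95% interval -1.15 to -0.03) that did not pass (limma adjusted p = 0.0800; 45.2% of all genes called). It was -0.83 without replicate 2 of treated Tnfrsf1α-/-, which leaves 1 library in that group, and changed sign after quantile normalization (0.55). Tnfrsf1β-/- was lower, at 13.70 ± 0.15 (difference from WT -1.75, limma adjusted p = 0.000484; 51% called), a call lost after quantile normalization (-0.08, limma adjusted p = 0.781). Treated Tnfrsf1β-/- and untreated WT overlapped in Krt7, and untreated Tnfrsf1α-/- and Tnfrsf1β-/- were 0.08 apart at their nearest libraries.

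Krt8, the type II keratin that hepatocytes and bile duct cells share, varied less than Krt7 in 11 libraries. Its level was 6.26 and 0.62 with TNFα and 7.86 and 7.95 untreated under the label Tnfrsf1α-/-. In Tnfrsf1β-/- it was 8.62 and 8.02 with TNFα and 7.44 and 7.45 untreated, and in WT 9.96 and 10.05 with TNFα and 8.57 and 8.61 untreated. Treated WT was highest, replicate 2 of treated Tnfrsf1α-/- was lowest, and both replicates of that group lay below the other 10 libraries. Untreated WT and treated Tnfrsf1β-/- overlapped, and untreated Tnfrsf1α-/- lay just below them and above untreated Tnfrsf1β-/-. Only 3 of 11860 tested genes, Krt8 included, lay as far below their lowest other library in replicate 2 of treated Tnfrsf1α-/- as Krt8 did (5.64).

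All groups share 1 estimate of the spread, and the SE of Krt8 was 1.38 in each of the 7 pairs of groups; for TNFα in WT it was 0.19 without replicate 1 and 0.20 without replicate 2 of treated Tnfrsf1α-/-. Krt8 was at 3.44 ± 3.99 in treated Tnfrsf1α-/- against 10.01 ± 0.06 in treated WT (SD). With all groups in the fit, this was the only one of the 7 pairs of groups compared in which Krt8 passed (-6.57, limma adjusted p = 0.00524). The difference was -3.75 without replicate 2 of treated Tnfrsf1α-/-, and the limma adjusted p was 0.110 with only these groups in the fit. With TNFα against untreated its difference was -4.47 under the label Tnfrsf1α-/- (limma adjusted p = 0.0574), 0.88 in Tnfrsf1β-/- (95% interval -2.27 to 4.03, limma adjusted p = 0.617) and 1.41 in WT (95% interval -1.74 to 4.57, limma adjusted p = 0.426). Without replicate 2 of treated Tnfrsf1α-/- the same 3 differences were -1.65, 0.88 and 1.41, and without replicate 1 the first was -7.28. Such a fit leaves 1 library in that group and drops the disagreement of its replicates, so no call is read from it. In the untreated knockouts against WT Krt8 differed by -0.69 under the label Tnfrsf1α-/- and -1.15 in Tnfrsf1β-/-. Neither passed (limma adjusted p = 0.715 and 0.519).

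**Figure D2:**
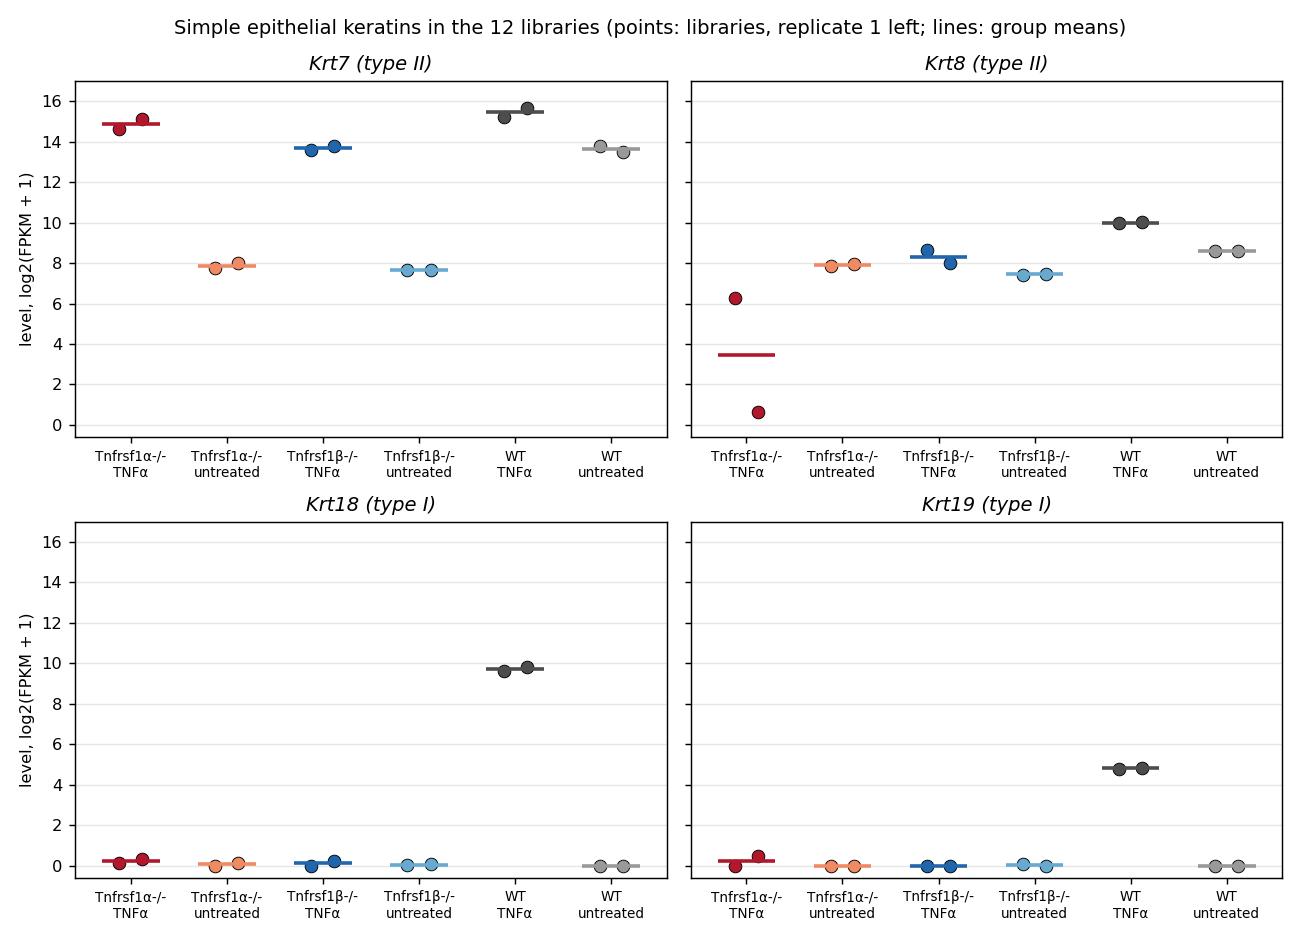
Level of each keratin as log2(FPKM + 1) (vertical axis) by group (horizontal axis); points are libraries and lines group means. Krt7 was low in the 4 untreated knockout libraries, Krt8 was at 0.62 in replicate 2 of treated Tnfrsf1α-/-, and Krt18 and Krt19 lay above 1 only in the 2 treated WT libraries.

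**Figure D3:**
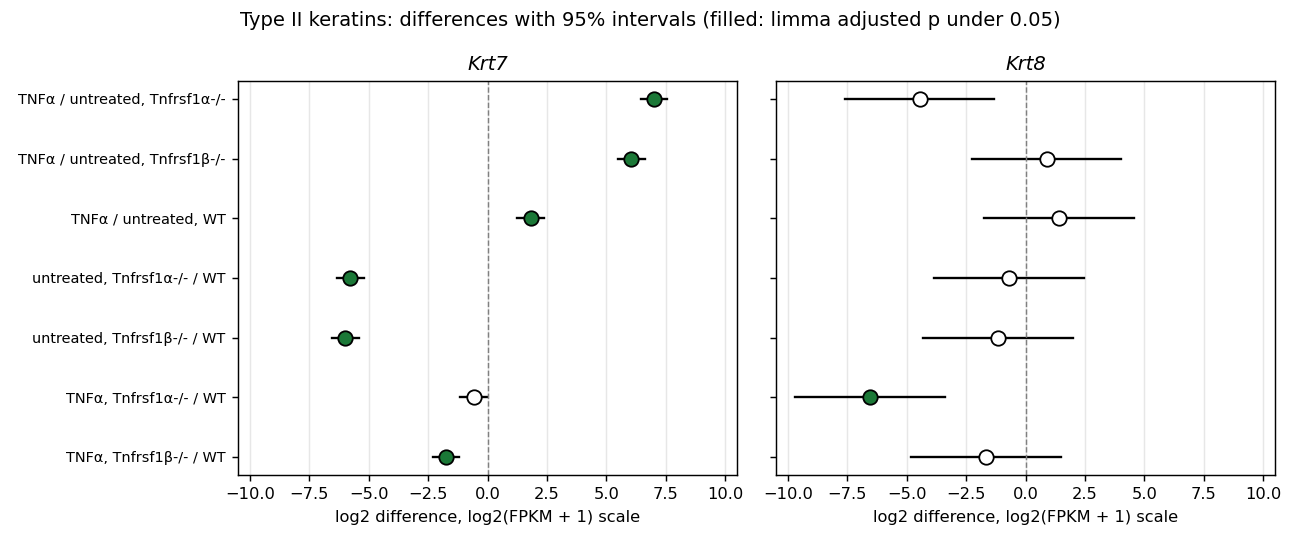
Log2 differences of Krt7 and Krt8 (horizontal axis, log2(FPKM + 1) scale) for 7 comparisons (vertical axis), with 95% intervals from limma; filled points passed an adjusted p of 0.05. The intervals of Krt7 are narrow and those of Krt8 span more than 6 log2 units; the replicates of treated Tnfrsf1α-/- were at 6.26 and 0.62 in Krt8.

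Krt18, the type I partner of keratin 8 in hepatocytes, was found at a level above 1 in treated WT alone. It was at 0.15 and 0.34 with TNFα and at 0 and 0.14 untreated under the label Tnfrsf1α-/-, at 0 and 0.24 with TNFα and at 0.04 and 0.06 untreated in Tnfrsf1β-/-, and at 9.64 and 9.84 with TNFα and 0 in both untreated libraries of WT. Krt19, the type I keratin of bile duct and progenitor cells, also lay above 1 in treated WT alone, at a lower level. It was at 4.78 and 4.84 in treated WT and at most 0.46 in the other 10 libraries, 8 of which listed it at 0. The level of Krt18 in treated WT exceeded that of Krt19 by 4.90 and 5.05 in log2 FPKM.

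Krt18 and Krt19 entered the test only through the treated WT libraries: their mean FPKM over the other 10 was 0.0721 and 0.0415, below the minimum of 1. A difference of treated WT from the other groups was therefore fixed by the filter, and no fold is given against groups listed at or near 0. Their limma adjusted p was 1.70e-09 and 2.89e-08 for TNFα against untreated in WT, 2.40e-09 and 5.62e-08 for treated Tnfrsf1α-/- against treated WT, and 1.84e-09 and 2.86e-08 for treated Tnfrsf1β-/- against treated WT. Of all 11860 genes 9, Krt18 included, had as wide a gap as its 9.30 between the lower treated WT library and the highest other library; for Krt19 the gap was 4.32 and the count 165. In bulk RNA, a change in the number of cells that hold a transcript and a change in the amount per cell cannot be told apart. The same treated WT libraries were the ones with most hepatocyte markers, such as Alb, the gene for serum albumin, at 10.01 and 9.92 and at most 0.27 elsewhere. Of the 16 tested hepatocyte markers 1, Ambp, was instead higher in treated Tnfrsf1α-/- than in treated WT (4.15, limma adjusted p = 9.80e-05). The other 15 were lower there. Of the 16, 14 passed the filter through treated WT alone, which fixed that outcome for them. Of all tested genes 22.4% were lower in that comparison.

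Krt8 and Krt18 lie next to each other on rat chromosome 7, with a lncRNA gene annotated between them, and are transcribed away from each other. Since these neighbours encode filament partners and yet differed in 10 libraries, their upstream sequences are shown. RefSeq on build GRCr8 gives the 250 bases before each annotated start, on the gene's strand: chr7:135010340-135010589 on the minus strand for Krt8 and chr7:135035918-135036167 on the plus strand for Krt18. Promoters of Krt8 and Krt18, 2 of the 4 members, were matched by symbol; Krt7 and Krt19 are named only.
Krt8: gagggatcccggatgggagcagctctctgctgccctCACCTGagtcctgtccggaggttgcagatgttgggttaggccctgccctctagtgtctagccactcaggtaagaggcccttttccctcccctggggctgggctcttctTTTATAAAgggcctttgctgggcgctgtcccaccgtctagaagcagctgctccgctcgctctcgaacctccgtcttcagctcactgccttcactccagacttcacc
Krt18: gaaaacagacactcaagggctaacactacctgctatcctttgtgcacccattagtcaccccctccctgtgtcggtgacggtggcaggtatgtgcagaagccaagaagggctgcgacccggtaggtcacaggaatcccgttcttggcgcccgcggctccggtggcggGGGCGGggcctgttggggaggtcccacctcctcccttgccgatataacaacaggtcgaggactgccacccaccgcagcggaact
Capitals mark matches, on either strand, to TATAAA (the TATA box), GGGCGG (the GC box that Sp1 binds), TGANTCA (the AP-1 site) and CAGGTG (the E-box that Snail and Zeb repressors bind). Upstream of Krt8 there were 2 overlapping TATAAA matches, at positions -106 to -101 and -104 to -99 from the annotated start, and 1 CAGGTG match at -214 to -209. Upstream of Krt18 there was 1 GGGCGG match at -84 to -79 and no TATAAA. Neither held TGANTCA. Among 33469 rat promoters of this length TATAAA occurs in 12.9% of promoters, GGGCGG in 30.5%, TGANTCA in 6.34% and CAGGTG in 15.9%. A match of letters does not show that a factor binds.

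The balance of type II over type I keratins was measured in treated WT, the group with clear levels of all 4 genes. Summed Krt7 and Krt8 exceeded summed Krt18 and Krt19 by 5.60 and 5.82 in log2 FPKM there. Krt8 and Krt18 were nearly level, with Krt8 higher by 0.33 and 0.21. In the other 10 libraries the type I partners among the 4 genes were near 0. The log2 ratio of Krt7 to Krt8 FPKM was 8.39 and 16.00 in treated and -0.11 and 0.04 in untreated Tnfrsf1α-/-, 4.98 and 5.80 in treated and 0.24 and 0.20 in untreated Tnfrsf1β-/-, and 5.28 and 5.62 in treated and 5.23 and 4.89 in untreated WT. Krt7 and Krt8 were thus nearly level in the untreated knockouts and far apart elsewhere.

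The type I keratins Krt14 and Krt17 were present in 9 of the 10 libraries in which Krt18 was at or near 0. Krt14, the type I keratin of basal epithelial cells, was at 8.61 and 0.17 with TNFα and 9.56 and 9.83 untreated under the label Tnfrsf1α-/-, at 10.17 and 10.42 with TNFα and 9.62 and 9.47 untreated in Tnfrsf1β-/-, and at 0 and 0.10 with TNFα and 9.93 and 10.02 untreated in WT. Krt17, a type I keratin of basal and stressed epithelium, lay between 4.47 and 6.86 in the same 9 libraries that held Krt14 and at or below 0.02 in the other 3. Krt14 and Krt17 together made 97.1% to 99.9% of type I keratin FPKM in these 9 libraries, which were also the 9 with 8 or 9 of the 10 mesothelial markers at 1 FPKM; the part of those cells in the result was not tested. Krt18 and Krt19 made 96.5% and 93.8% of it in treated WT. Summed type I FPKM was 851 and 1003 in treated WT and 1038 and 1156 in untreated WT. Replicate 2 of treated Tnfrsf1α-/- had neither pair at a level above 1, and its summed type I FPKM was 25.2, of which Krt18 and Krt19 made 2.53%. The highest type I keratin in that library was the hair keratin Krt34, at a level of 4.37. Which keratin pairs with which protein was not measured.

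**Figure D4:**
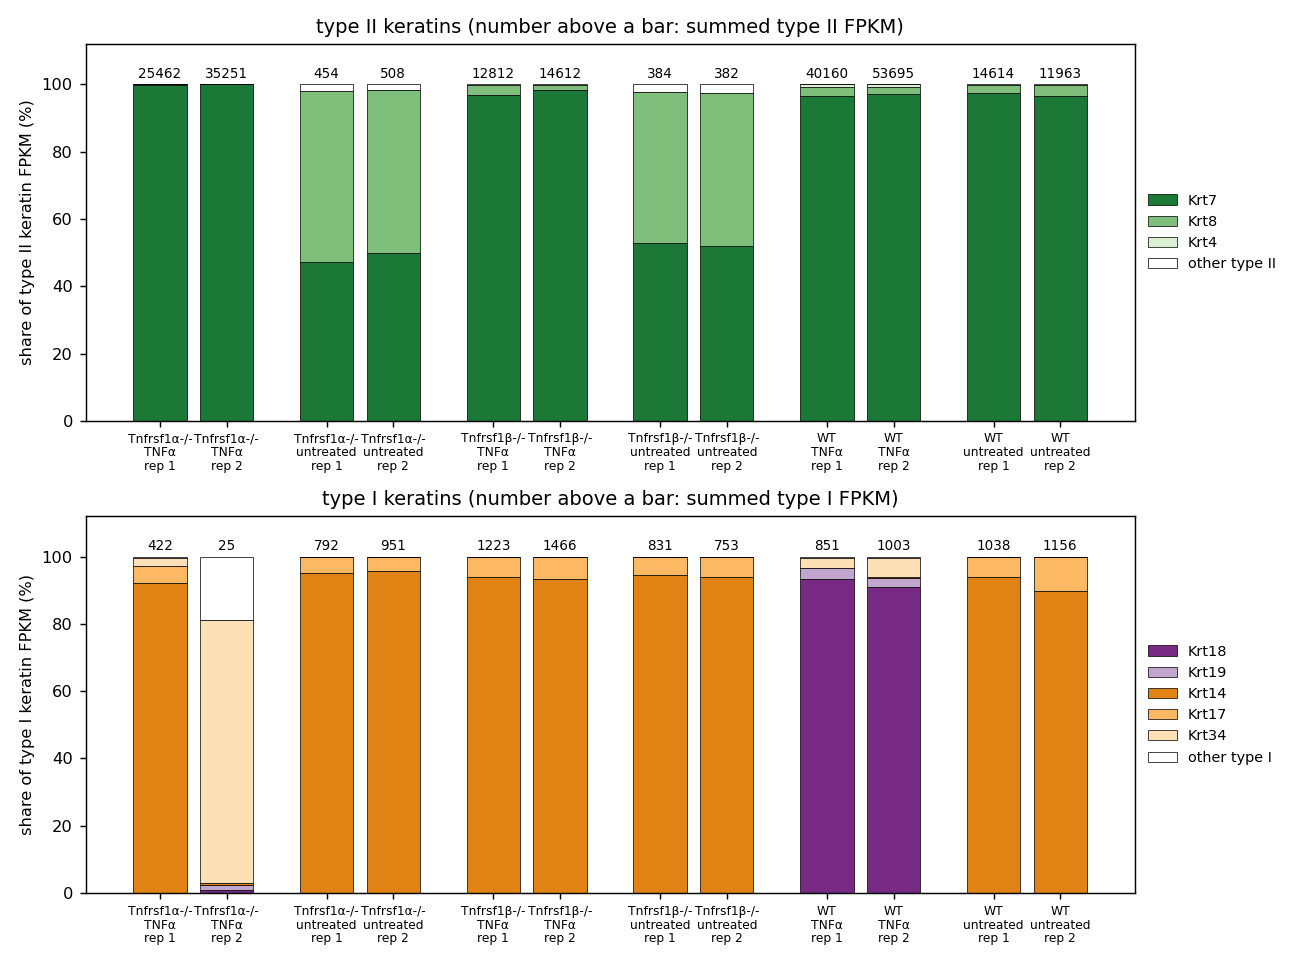
Share of each keratin in the summed FPKM of its type (vertical axis, percent) in each library (horizontal axis), type II above and type I below, with the summed FPKM over each bar. Krt7 made at least 96.7% of type II FPKM outside the untreated knockouts, and Krt18 with Krt19 made 96.5% and 93.8% of type I FPKM in treated WT.

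Counts of gene lists below are read beside those of all 11860 tested genes, whose balance depended on scaling. With TNFα 9.81% rose and 7.5% fell under the label Tnfrsf1α-/-, 17.6% rose and 42.9% fell in Tnfrsf1β-/-, and 31.9% rose and 15.3% fell in WT. Untreated, 36.7% were higher and 17% lower under the label Tnfrsf1α-/-, and 36.9% higher and 17.5% lower in Tnfrsf1β-/-, than in WT. With TNFα in each, 22.7% were higher and 22.4% lower under the label Tnfrsf1α-/-, and 14.7% higher and 36.3% lower in Tnfrsf1β-/-, than in WT. For the response relative to WT the shares were 12.8% and 22% under the label Tnfrsf1α-/- and 17.3% and 47.3% in Tnfrsf1β-/-. After median-ratio scaling of the libraries, the first of 2 rescalings, the share of higher among called genes was 48.9% in place of 67.6% for TNFα in WT, 51.5% in place of 29.1% for TNFα in Tnfrsf1β-/-, 50.4% in place of 68.3% for untreated Tnfrsf1α-/-, 50.8% in place of 67.8% for untreated Tnfrsf1β-/-, and 55.1% in place of 28.8% for treated Tnfrsf1β-/- against treated WT. After quantile normalization, the other rescaling, it was 34.8% in place of 56.7% for TNFα under the label Tnfrsf1α-/-. For the responses relative to WT, median-ratio scaling gave 53.4% in place of 36.9% for Tnfrsf1α-/- and 50.9% in place of 26.8% for Tnfrsf1β-/-.

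Most of the other 43 keratin genes were at or near 0. Of these, 17 were at 0 in every library and 34, these included, stayed below 1 FPKM in all; 9 reached 1 FPKM in some library, and 6 averaged at least 1 FPKM and were tested. With TNFα in WT 2 of the 6 rose and 3 fell, under both rescalings too. Their median was -0.93, beside 0.32 over all tested genes. Krt4, a type II keratin of stratified mucosa, was at 8.39 and 8.78 with TNFα and at 0 and 1.80 untreated. It was listed at 0 in 9 of the 10 libraries outside treated WT, where its mean was 0.249 FPKM, so that it was tested through treated WT alone and its rise was fixed by the filter. Krt34, a hair keratin, was at 4.81 and 5.91 with TNFα and listed at 0 untreated. Krt17 fell by 6.41 (SE 1.11, limma adjusted p = 0.00179) and Krt14 by 9.93 (SE 2.05, limma adjusted p = 0.00449). Under the label Tnfrsf1α-/- 1 of the 6 rose with TNFα (Krt34), and in Tnfrsf1β-/- none passed by limma or had an unadjusted p under 0.05. In treated Tnfrsf1β-/- against treated WT 3 of the 6 were higher and 3 lower, in treated Tnfrsf1α-/- against treated WT 2 were lower, and none passed by limma, or had an unadjusted p under 0.05, between untreated knockouts and WT (Krt10, lower in treated Tnfrsf1β-/-, was lost after either rescaling). After quantile normalization 2 of the 6 also fell with TNFα under the label Tnfrsf1α-/-, 1 was lower there than in WT without TNFα, and 3 were lower with it.

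The response of the 4 keratins to TNFα was compared between genotypes. The response of Krt7 under the label Tnfrsf1α-/- exceeded that in WT by 5.19 (SE 0.35, limma adjusted p = 5.60e-06; 34.8% of all genes called), and in Tnfrsf1β-/- by 4.24 (SE 0.35, limma adjusted p = 1.68e-05; 64.5% called). Treated Krt7 levels lay between 13.60 and 15.67 in all 3 genotypes, whereas untreated ones lay between 7.64 and 7.99 in the knockout labels and at 13.80 and 13.50 in WT. The response of Krt8 differed under the label Tnfrsf1α-/- (-5.88, SE 1.95, limma adjusted p = 0.0465), a call lost under 14 of 19 alternatives (limma adjusted p 0.0627 to 0.132 in those). It was not shown to differ in Tnfrsf1β-/- (-0.53, 95% interval -4.99 to 3.92, limma adjusted p = 0.826). All of these comparisons share the WT libraries.

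Genes for proteins that anchor or bind keratin filaments moved in both directions. Of 18 such genes 16 were tested. With TNFα in WT 3 rose and 2 fell, with a median of -0.26, but 2 rose and 6 fell after either rescaling. The 3 were Tchp, for the keratin-binding protein trichoplein (2.50, SE 0.21, limma adjusted p = 1.85e-05), Fam83h, which recruits casein kinase to keratin filaments (3.50, SE 0.45, limma adjusted p = 0.000309), and Ywhaq, for a 14-3-3 protein (0.59), which was lost after either rescaling. Under the label Tnfrsf1α-/- 2 fell with TNFα and 14 did not pass, with a median of -0.47 (1 up and 9 down under quantile normalization), and in Tnfrsf1β-/- 1 rose and 10 fell (median -1.17, beside -0.66 over all genes; 1 up and 3 down under median-ratio scaling, 2 up and 9 down under quantile normalization). In the untreated knockouts 5 were higher and 1 lower under the label Tnfrsf1α-/- and 7 higher and 1 lower in Tnfrsf1β-/- than in WT, with medians of 0.79 and 0.76 against 0.48 and 0.47 over all genes; after median-ratio scaling the higher ones were 2 and 4, and after quantile normalization 8 and 9. Tradd, for the adaptor that keratin 18 binds, was the lower one in both (-1.50 and -1.17, limma adjusted p = 0.0137 and 0.0379). Dsp, for desmoplakin, which ties keratin filaments to desmosomes, was at 6.11 and 0 in treated Tnfrsf1α-/-. In the same pair Krt8 was at 6.26 and 0.62. Dsp is named after its values were seen. Between these replicates 1231 genes lay more than 2 log2 units apart, against 8 to 127 in the other groups.

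Other intermediate filament genes were mostly lower with TNFα in WT: 1 of 8 tested rose and 6 fell (median -2.59, beside 0.32 over all genes), and 7 fell after either rescaling. With TNFα under the label Tnfrsf1α-/- 3 rose and 5 did not pass (median 0.78, beside -0.02), and in Tnfrsf1β-/- 3 rose and 1 fell (median -0.21, beside -0.66); quantile normalization gave 2 that fell in the first of these, and Sync, the 1 that fell in the other, was lost after either rescaling, though quantile normalization gave 1 different gene that fell. Vim, for the mesenchymal filament vimentin, was at 1.22 and 1.34 with TNFα and 10.57 and 10.73 untreated, and Des, for desmin of muscle and stellate cells, at 1.33 and 1.34 with TNFα and 6.04 and 6.28 untreated. Lmna, for the nuclear lamins A and C, was at 7.41 to 7.78 in the same 4 untreated knockout libraries in which Krt7 was low and at 13.27 to 15.35 in the other 8 (untreated Tnfrsf1α-/- against WT -7.75, untreated Tnfrsf1β-/- against WT -7.46; limma adjusted p = 1.22e-07 and 1.69e-07).

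Junction and surface genes of simple epithelia, and the transcription factors of such epithelia, were counted beside the keratins. Of 15 tested junction genes 10 rose and none fell with TNFα in WT by limma, none at an unadjusted p under 0.05 either, with a median of 2.54, and 9 of 16 factors rose and 3 fell, with a median of 3.05 (0.32 over all genes). Under both rescalings 10 junction genes rose, and of the factors 8 rose and 3 fell with median-ratio scaling and 10 rose and 1 fell with quantile normalization. In the knockouts the counts with TNFα were smaller and went both ways: under the label Tnfrsf1α-/- 2 junction genes rose and 1 fell (median -0.29), and 3 factors rose and 1 fell (median -0.17), beside -0.02 over all genes. In Tnfrsf1β-/- 1 junction gene rose and 3 fell (median -0.49), and 2 factors rose and 6 fell (median -0.23), beside -0.66 over all genes. These moved with scaling: in Tnfrsf1β-/- 2 junction genes rose and 2 fell, and 2 factors rose and 3 fell, with median-ratio scaling, and 3 and 1, and 3 and 4, with quantile normalization. The junction gene that fell under the label Tnfrsf1α-/- was Tjp3, for a tight junction scaffold, and it was lost after either rescaling. Of the tested genes 4 junction genes and 5 factors, among them Epcam and Hnf4a, passed the filter through treated WT alone, so that any rise of these was fixed by it. Hnf4a, the hepatocyte nuclear factor, was at 5.22 and 5.13 with TNFα and 0 in both untreated WT libraries. Sox9, a factor of bile duct and progenitor cells, was at 9.67 and 9.39 with TNFα against 0.23 and 0.31 untreated under the label Tnfrsf1α-/-, at 6.30 and 5.69 against 0.04 and 0.02 in Tnfrsf1β-/-, and at 9.15 and 9.19 against 5.21 and 5.78 in WT. Sox9 thus was low in the same 4 untreated knockout libraries as Krt7. Cdh1, for E-cadherin, was also low there, at or below 0.05, and at 2.96 to 10.71 in the other 8. Their lists went both ways between untreated knockouts and WT. Under each label 5 factors were higher and 2 lower, and 3 junction genes were higher and 2 lower. Of all tested genes 36.7% were higher and 17% lower under the label Tnfrsf1α-/-, and 36.9% and 17.5% in Tnfrsf1β-/-. Calls of Klf5, Cldn12 and Tjp3 were lost after quantile normalization under both labels, and those of Ehf and Grhl1 in Tnfrsf1β-/-.

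The genes most like each keratin were named by Pearson's r over the 12 libraries, as a description, since libraries of a group are not independent. For Krt7 they included Setd3 (r = 0.997), Serpine2 (0.997), Bcl2l1 (0.996) and Synj2 (0.995), and 21 genes exceeded 0.99. Bcl2l1, which encodes the survival protein Bcl-xL, was at 12.95 and 13.34 with TNFα against 4.64 and 4.65 untreated under the label Tnfrsf1α-/-. For Krt8 they were Adtrp (0.975), Rbpms (0.974), Pla2g16 (0.962), Npepl1 (0.958) and Bst2 (0.951), all of them low in replicate 2 of treated Tnfrsf1α-/-. For Krt18 they were Gsta5, Fblim1, Golt1a, Ttr and Creb3l3 (r = 0.9997 to 0.9998), among 302 genes above 0.99, and for Krt19 Ccdc88b, Dppa4, Arhgap9, Cidec and Tfr2 (r = 0.9996 to 0.9998), also among 302. In the other 10 libraries the genes named for Krt18 lay at most at 0.25 and those for Krt19 at most at 0.695. These r values and both counts of 302 therefore rest on the 2 treated WT libraries. Krt18 and Krt19 correlated at r = 0.9985 with each other, a value that rests on the same 2 libraries. Krt7 and Krt8 were at -0.05.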

How the data were processed

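The authors deposited a table labelled FPKM for 12 libraries, and its values were read as log2 of FPKM with 1 added before deposit. No source states this scale: it is inferred from a highest value of 16.80 and exact zeros. Per the labels these are bulk RNA-seq libraries. The sources used here do not give the aligner, genome build, annotation, strandedness or treatment of reads shared between keratin paralogues, and with no counts the depth is unknown. Of 22730 lines 346 had no symbol and were left out. FPKM was recovered from the log2 values for sums and shares. The test was limma (version 3.58.1, run in R 4.3.3) with an intensity trend and all 6 groups in the fit, on log2 values with pseudocount 1; it covered the 11860 lines whose FPKM averaged 1 or more; calls are Benjamini-Hochberg adjusted p under 0.05 over all tested lines. The fit was tested on simulated data. Differences on this scale understate changes of low genes. The 4 keratins and all gene lists were chosen with earlier results of these data known. From each list up to 4 members with the smallest p in a comparison were named, and for each keratin the 5 genes with the highest Pearson correlation, of which 1 for Krt7 is not reported here. Alternatives were another pseudocount, no filter, median-ratio scaling, quantile normalization, only the groups compared, no trend, a replicate block and leaving out each library; leaving out the 4 untreated knockout libraries was added after the data were seen. Promoters are from RefSeq.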

Additional observations from a re-analysis of the deposited data

Results flagged for a closer look

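The response of Krt7 to TNFα differed between genotypes by an interaction term in limma. For Krt7 the response under the label Tnfrsf1α-/- minus that in WT was 5.19 on the log2(FPKM + 1) scale, and for Tnfrsf1β-/- minus WT it was 4.24. For Krt8 the Tnfrsf1α-/- response minus that in WT was -5.88, a value that rests on a treated pair at 6.26 and 0.62 and kept its call under 5 of 19 alternatives. For Krt18 the fitted values were -9.56 under the label Tnfrsf1α-/- and -9.66 in Tnfrsf1β-/-, and for Krt19 -4.58 and -4.84. These Krt18 and Krt19 values are no folds and no independent result: both genes are at or near 0 outside treated WT and entered the test through it alone, which fixed the outcome.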

How the results depend on the processing

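In comparisons with treated WT, counts of the keratins called hold Krt18 and Krt19, whose calls the filter fixed. The number of the 4 keratins called moved by more than 1.5 times for 4 comparisons. For TNFα under the label Tnfrsf1α-/- it was 1, and 2 after quantile normalization or with a replicate block (Krt8 adjusted p = 0.0483). For TNFα in Tnfrsf1β-/- and for each untreated knockout against WT it was 1, and 2 with only the groups compared. Leaving out each library in turn moved these counts without either replicate of treated Tnfrsf1α-/-, where 1 library is left in that group. Smaller moves occurred in another 4: with TNFα in WT 3, against 2 after quantile normalization (Krt7 lost) and 4 with only the groups compared; in treated Tnfrsf1α-/- against treated WT 3, against 2 with only the groups compared; in treated Tnfrsf1β-/- against treated WT 3, against 2 after quantile normalization (Krt7 lost) and 4 with only the groups compared; and in the Tnfrsf1α-/- response against WT 4, against 3 where Krt8 was lost. Leaving out each library gave 3 to 4 in these. Krt8 changed sign in Tnfrsf1β-/- with TNFα (-0.45), in untreated Tnfrsf1α-/- (0.70) and in untreated Tnfrsf1β-/- against WT (0.21) after quantile normalization, and in the Tnfrsf1β-/- response against WT after median-ratio scaling (0.75); Krt7 changed sign between treated Tnfrsf1α-/- and treated WT after quantile normalization (0.55). The cause was not tested. None of the 5 genes most like each keratin by Pearson's r was among the 5 by Spearman's rho (0 for all 4). Whether replicate numbers pair the libraries is not stated, and with 2 libraries a group it could not be settled. Correlations of same-numbered deviations were -0.17 to 0.24 (median 0.15, over 0.1 in 9 of 15 pairs of groups). The block changes are given here alone. Over all genes, calls for TNFα under the label Tnfrsf1α-/- numbered 2052, against 3789 after quantile normalization, 570 with only the groups compared. For the Tnfrsf1α-/- response against WT they numbered 4127, against 2751 with only the groups compared, and for treated Tnfrsf1α-/- against treated WT 5356, against 2111. Without single libraries more of these counts moved by over 1.5 times. Without replicate 1 or 2 of treated WT, calls for TNFα in WT numbered 3367 and 3456 in place of 5601, for treated Tnfrsf1α-/- against treated WT 3356 and 2937 in place of 5356, for treated Tnfrsf1β-/- against treated WT 3762 and 3998 in place of 6046, and for the Tnfrsf1α-/- response 2205 and 2506. That response had 7152 calls without replicate 1 of treated Tnfrsf1α-/-, and 2447 and 2562 without replicate 1 or 2 of untreated Tnfrsf1α-/-. TNFα under the label Tnfrsf1α-/- had 7000 without replicate 1 of its treated pair, 724 and 828 without replicate 1 or 2 of its untreated pair, and 1286 without either replicate of untreated Tnfrsf1β-/-. Untreated Tnfrsf1α-/- against WT had 4124 in place of 6370 without its replicate 1, and untreated Tnfrsf1β-/- against WT 4291 and 4138 in place of 6456 without its replicate 1 or 2 and 4296 without replicate 2 of untreated WT.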
